A study of Mus musculus with 12 samples.

Results

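Long-chain fatty acids dissolve poorly in water, so cells rely on proteins to take them up and to carry them between membranes. Fatty acid binding proteins (FABPs) are small cytosolic carriers with a barrel-shaped pocket that holds a single lipid, and they deliver fatty acids to mitochondria, to the endoplasmic reticulum and, in the nucleus, to PPAR receptors. CD36 is a scavenger receptor that takes up fatty acids and oxidized lipoproteins at the cell surface. The fatty acid transport proteins (FATPs) trap fatty acids inside the cell by joining them to coenzyme A. In the brain, *Fabp7* marks radial glia and astrocytes, including the Bergmann glia of the cerebellum, *Fabp5* is found in neurons and glia, and *Fabp3* is mostly neuronal. This account covers 8 genes chosen by name out of 55536 annotated genes, namely the FABP genes *Fabp3*, *Fabp4*, *Fabp5*, *Fabp7* and *Pmp2* (the FABP of peripheral myelin), the receptor *Cd36*, and the FATP genes *Slc27a1* (FATP1) and *Slc27a4* (FATP4).

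RNA-Seq of cerebellum and cerebral cortex was compared between 1-month-old WT and *Snx14*-KO mice, with 3 libraries in each of the 4 groups. SNX14 is a sorting nexin of the endoplasmic reticulum that takes part in lipid droplet formation, and the question here was how genes that bind and import fatty acids were expressed before cerebellar degeneration. The *Snx14*-KO mice carry a Cas9-made frameshift deletion in every cell of the body, on a C57BL/6J background, so effects that start in other cells or organs are included. Each library is bulk tissue of mixed cell types from a numbered mouse, and the sex of each mouse is not given in the labels.

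Each library held 16672589 to 19887427 counts on genes. *Snx14* was at 63.5 to 66.9 CPM (counts scaled to the size of each library) in WT and 10.4 to 11.2 in *Snx14*-KO cerebella, and at 53.5 to 59.8 and 7.68 to 8.49 in the cortices, so every library matched its genotype label. The 8 Purkinje cell markers summed to 8140 to 11625 CPM in the cerebellum and 856 to 1044 in the cortex. The 12 forebrain neuron markers summed to 5347 to 6474 CPM in the cortex and 204 to 402 in the cerebellum. *Snx14*-KO cerebella 1 and 3 had forebrain sums of 402 and 378 CPM, above the 204 to 222 of the WT cerebella and the 217 of *Snx14*-KO cerebellum 2. Of the 12 markers only *Nrgn*, *Camk2a* and *Bcl11b* were higher in both of these libraries than in the other 4 cerebella (*Nrgn* at 121 and 117 against 1.98 to 9.14 CPM). *Snx14*-KO cortex 2 had a meningeal marker sum of 402 CPM, while the other cortices had 109 to 157. This library also had the lowest oligodendrocyte marker sum of the cortices, 5620 against 7291 to 8190 CPM. Its *Gfap* was at 1046 against 147 to 262 CPM, while its astrocyte marker sum of 7812 CPM lay within the 7294 to 8240 of the WT cortices.

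Of the 8 genes, 6 had enough counts to be tested. *Fabp4* and *Pmp2* did not. *Fabp4*, the FABP of fat cells and some capillaries, had 0 to 4 counts in a library, and *Pmp2* had 0 counts in 11 libraries and 2 in WT cortex 2. A count of 0 allows up to 3 counts, which is 0.143 to 0.187 CPM in these libraries, so neither gene was detected above this floor by more than 1 count and no fold is given for them. The 6 fat cell markers summed to 0.179 to 0.611 CPM, the 8 Schwann cell markers to 90.3 to 148 CPM and the 12 endothelial markers to 146 to 254 CPM. Of the exon bases of *Pmp2*, 86.9% are also exons of the read-through gene *Gm37389*. *Pmp2*, *Fabp4* and *Fabp5* lie within the same cluster on chromosome 3, where *Fabp5* (ENSMUSG00000027533.10, plus strand, 10012548 to 10016607 in GRCm38) was the only member of the 3 with more than 4 counts in a library.

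**Figure D1:**
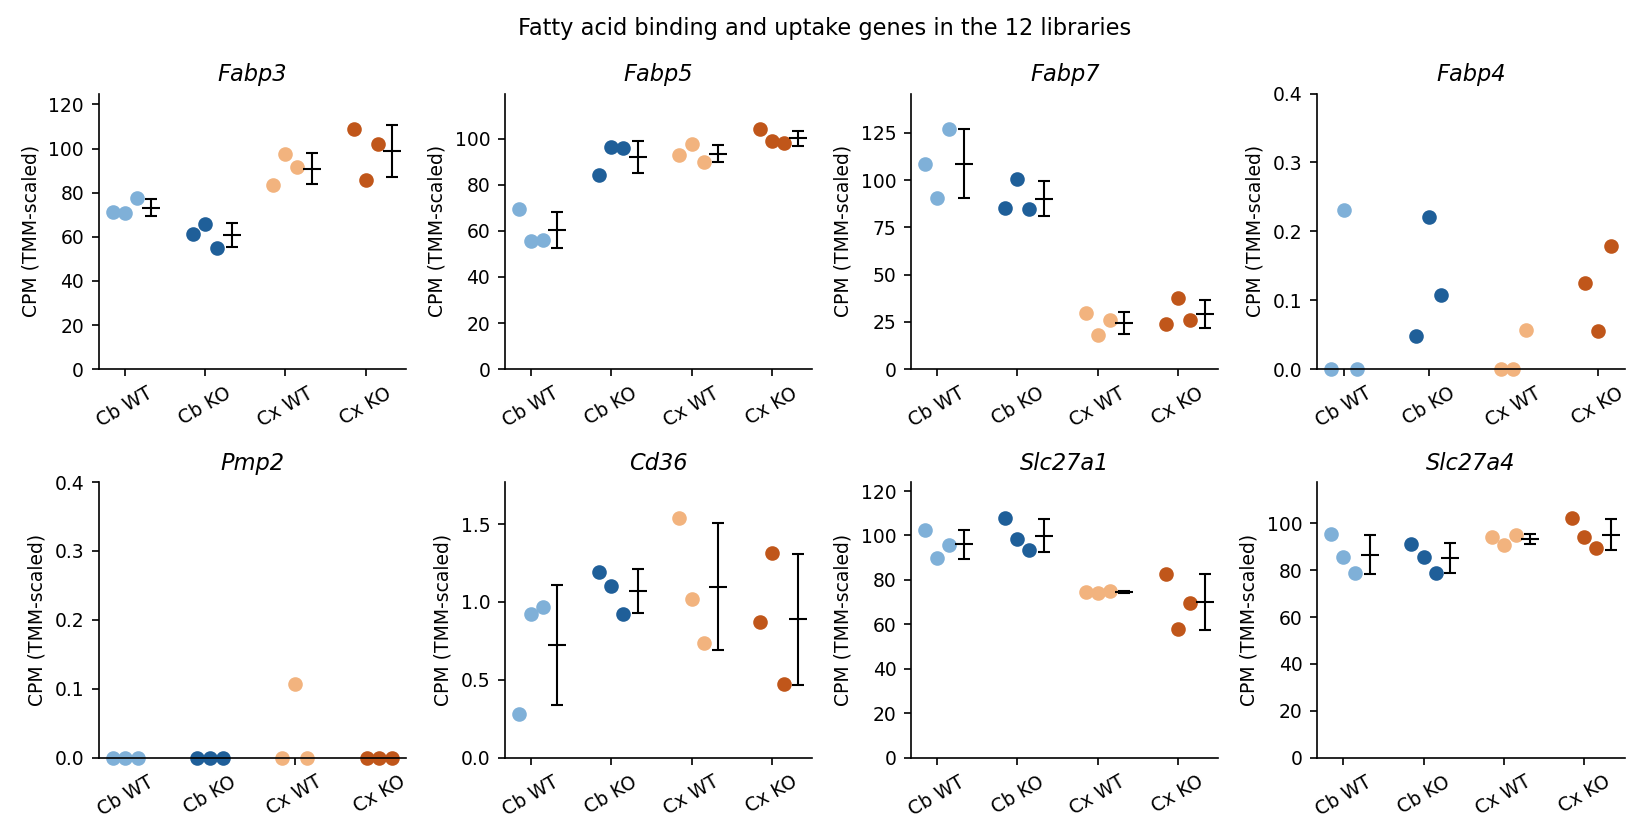
CPM of the 8 genes (y axis, TMM-scaled over 12 libraries) in the cerebellum (Cb) and cortex (Cx) of WT and *Snx14*-KO mice. Each point is a library and the bar beside it is the mean ± SD (n = 3), left out for *Fabp4* and *Pmp2*, which had 0 to 4 counts. *Fabp5* in the *Snx14*-KO cerebella lay at 84.0 to 96.2, above the 55.7 to 69.5 of the WT cerebella, and *Fabp7* was higher in every cerebellum than in every cortex.

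The coding sequences of the 5 FABP genes have between 55.3% (*Fabp5* and *Fabp7*) and 71.4% (*Fabp4* and *Pmp2*) identical positions. What matters for counting is sequence shared with other genes, because read pairs that map to several places were not counted. Of the 408 coding bases of *Fabp5*, 397 (97.3%) lie in stretches of at least 50 bases that occur unchanged in transcripts of 5 other genes, its processed copies. The most counted of these, *Gm6166*, had 1 to 9 counts in a library. Of the 402 coding bases of *Fabp3* (chromosome 4, plus strand, 130308595 to 130315463), 324 (80.6%) lie in such stretches, and its copy *Fabp3-ps1* had 2 to 17 counts. The coding sequence of *Fabp7* (chromosome 10, plus strand, 57784881 to 57788450) had 0 such bases. The first 300 coding bases of *Fabp7* and *Fabp3* in the GENCODE vM21 transcripts are shown to set a gene with unique sequence beside a gene with copies, with capitals marking the shared stretches.

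Fabp7: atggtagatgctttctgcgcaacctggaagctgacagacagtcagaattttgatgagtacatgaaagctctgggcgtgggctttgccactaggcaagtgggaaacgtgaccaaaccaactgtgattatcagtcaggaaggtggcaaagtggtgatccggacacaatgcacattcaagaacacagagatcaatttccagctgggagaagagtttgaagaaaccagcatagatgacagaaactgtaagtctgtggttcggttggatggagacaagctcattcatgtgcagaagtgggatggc

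Fabp3: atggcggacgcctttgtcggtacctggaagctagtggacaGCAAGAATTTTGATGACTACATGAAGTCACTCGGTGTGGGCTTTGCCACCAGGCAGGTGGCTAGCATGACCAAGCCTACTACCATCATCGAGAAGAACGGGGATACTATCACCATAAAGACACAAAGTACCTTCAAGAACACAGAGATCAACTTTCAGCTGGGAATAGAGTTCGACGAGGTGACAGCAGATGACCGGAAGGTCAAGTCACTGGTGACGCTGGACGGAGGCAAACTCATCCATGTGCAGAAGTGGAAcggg

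In *Fabp3*, 256 of the 300 bases shown are in capitals, and in *Fabp7* none. How many read pairs were lost to copies was not tested. The levels of *Fabp3* and *Fabp5* are therefore uncertain where they are set beside other genes. A further 19.6% of the exon bases of *Fabp3* lie over exons of *Zcchc17* and *Gm10570* on the other strand, and the counting ignored strand, so read pairs there were counted for each gene.

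*Fabp5* was higher in *Snx14*-KO than in WT cerebella. It was at 69.5, 55.7 and 55.9 CPM in the WT cerebella and at 84.0, 96.2 and 95.8 in the *Snx14*-KO cerebella. The lowest *Snx14*-KO library lay above the highest WT library. The means were 60.4 ± 7.94 and 92.0 ± 6.92 CPM (SD, n = 3 each), a log2 fold change of 0.62 (SE 0.0997, 95% interval 0.40 to 0.85), which is 1.54-fold. The unadjusted *P* was 0.000138 and the adjusted *P* was 0.134 by edgeR's quasi-likelihood test over 18201 genes, so *Fabp5* did not pass 0.05. That test called 1 gene in this comparison (0.00549% of those tested), which was *Snx14*. DESeq2 called *Fabp5* (adjusted *P* = 2.69e-05) among 0.996% of its tested genes. The quasi-likelihood test also called *Fabp5* in 3 settings that called more genes in all. These were no filter on low counts (adjusted *P* = 0.000112, 389 of 31465 genes called) and all 12 libraries in the fit (adjusted *P* = 0.0161, 50 of 19380). The last was the fit without *Snx14*-KO cerebellum 2 (adjusted *P* = 0.0482, 264 of 18649). With any other library left out, the test did not call *Fabp5*. In these bulk samples, more cells of a type and more RNA per cell cannot be told apart.

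The other tested FABP genes, *Fabp3* and *Fabp7*, had lower means in the *Snx14*-KO cerebella. *Fabp3* was at 71.1, 70.8 and 77.7 CPM in WT and 61.4, 65.8 and 55.0 in *Snx14*-KO cerebella, again without overlap but lower in the *Snx14*-KO mice (log2 fold change -0.26, SE 0.0821, unadjusted *P* = 0.0120, adjusted *P* = 0.416). *Fabp5* and *Fabp3* were the 2 of the 6 genes whose groups did not overlap, as for 12.5% of all genes tested (6.21% higher and 6.32% lower), and both had an unadjusted *P* under 0.05, as had 8.15% of all genes. *Fabp7* was at 109, 90.3 and 127 CPM in WT and 85.2, 101 and 84.7 in *Snx14*-KO cerebella, and these ranges overlapped (log2 fold change -0.25, SE 0.126, adjusted *P* = 0.683, and -0.10 without *Snx14*-KO cerebella 1 and 3). With 1 library left out the value lay between -0.37 (without WT cerebellum 2) and -0.13 (without WT cerebellum 3).

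The genes of uptake at the cell surface showed no detectable difference in the cerebellum. *Slc27a1* was at 103, 89.6 and 95.7 CPM in WT and 108, 98.2 and 93.3 in *Snx14*-KO cerebella (log2 fold change 0.07, 95% interval -0.10 to 0.24). *Slc27a4* was at 95.6, 85.7 and 78.8 CPM in WT and 91.1, 85.8 and 78.7 in *Snx14*-KO cerebella (log2 fold change -0.01, 95% interval -0.20 to 0.18). The groups of both FATP genes overlapped. *Cd36* had only 5 to 18 counts per WT and 17 to 25 per *Snx14*-KO cerebellum, and its log2 fold change of 0.58 had a 95% interval of -0.45 to 1.61, which at this depth holds both a fall and a rise. Without WT cerebellum 1, the library with 5 counts, the value was 0.19, and without WT cerebellum 3 it was 0.85.

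**Figure D2:**
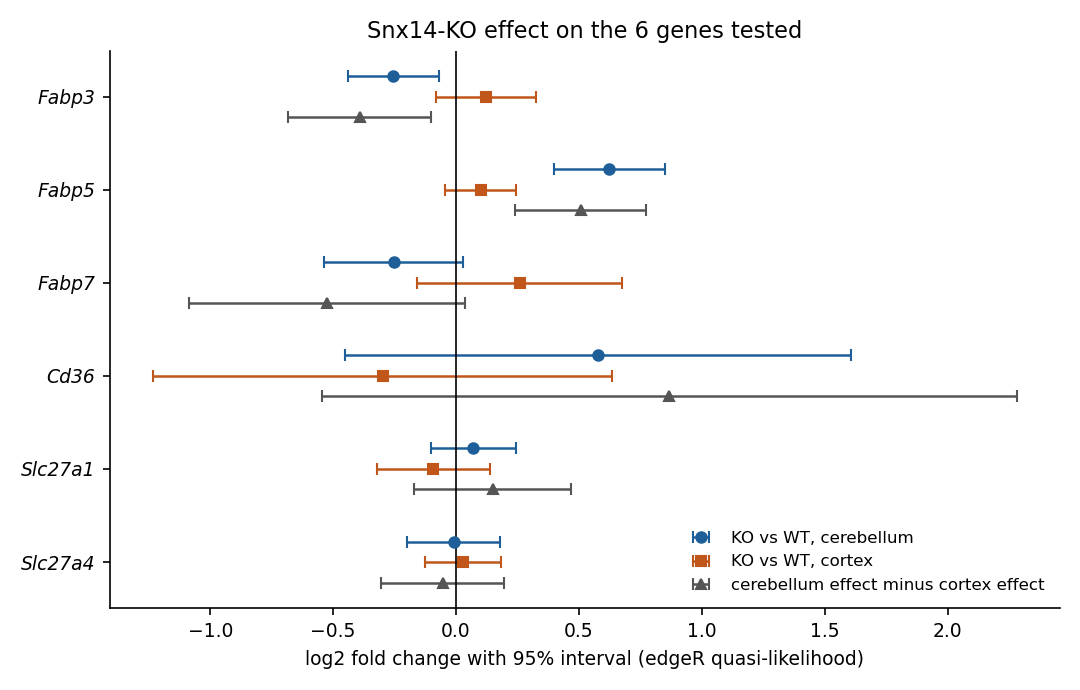
Log2 fold changes (x axis) of the 6 tested genes with their 95% intervals, for *Snx14*-KO against WT cerebellum (circles), *Snx14*-KO against WT cortex (squares) and the cerebellum effect minus the cortex effect (triangles). The interval of *Fabp5* lies above 0 in the cerebellum (0.40 to 0.85) and holds 0 in the cortex (-0.04 to 0.24), and the intervals of *Cd36* are the widest of the 6.

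In the cortex, none of the 6 genes had an unadjusted *P* under 0.05, a threshold that 4.5% of the 18255 genes tested passed (2.24% higher and 2.26% lower). After adjustment the quasi-likelihood test called 0.00548% of them, again *Snx14* alone, and DESeq2 called 0.119% of its genes and none of the 6. *Fabp5* was at 92.9, 97.5 and 90.0 CPM in WT and 104, 98.9 and 97.9 in *Snx14*-KO cortices. These groups did not overlap either, as for 9.24% of all genes, but the step between them was small (log2 fold change 0.10, SE 0.0663, 95% interval -0.04 to 0.24, adjusted *P* = 0.996). *Fabp3* was at 83.3, 97.4 and 91.7 CPM in WT and 109, 85.8 and 102 in *Snx14*-KO cortices (log2 fold change 0.12, SE 0.0926). *Fabp7* was at 29.6, 17.9 and 26.1 CPM in WT and 23.9, 37.8 and 26.1 in *Snx14*-KO cortices (log2 fold change 0.26, SE 0.190). The groups of both genes overlapped, and the highest *Fabp7* value was in *Snx14*-KO cortex 2, the library with the raised meningeal markers, without which the log2 fold change was 0.03 for *Fabp7* and 0.21 for *Fabp3*. That of *Fabp3* was 0.047 without *Snx14*-KO cortex 1 and 0.063 without WT cortex 1, and that of *Fabp7* was 0.42 without WT cortex 1. *Slc27a1* had its lowest value of the cortices, 57.7 CPM, in *Snx14*-KO cortex 2 as well. Its log2 fold change went from -0.09 to 0.03 without that library and to -0.23 without *Snx14*-KO cortex 1. The log2 fold change of *Slc27a4* was 0.03 (SE 0.0708) and that of *Cd36* was -0.30 (SE 0.429).

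Whether the effect of the deletion differed between the tissues was tested in a fit over all 12 libraries. This fit used the means of the 4 groups and did not pair the 2 tissues of a mouse. For *Fabp5*, the cerebellum effect exceeded the cortex effect by 0.51 on the log2 scale (SE 0.124, 95% interval 0.24 to 0.77, unadjusted *P* = 0.00110). For *Fabp3*, the cerebellum effect minus the cortex effect was -0.39 (SE 0.135, unadjusted *P* = 0.0116), and for *Fabp7* it was -0.53 (SE 0.261, unadjusted *P* = 0.0641, and -0.30 without *Snx14*-KO cortex 2). With adjustment over 19380 genes the *P* values were 0.396, 0.633 and 0.923, none of the 6 tested genes passed, and the test called 0 genes (0% of those tested), while 5.68% had an unadjusted *P* under 0.05. DESeq2 called 0.152% of its genes and gave *Fabp5* an adjusted *P* of 0.0743. Without the filter on low counts, the quasi-likelihood test called *Fabp5* (adjusted *P* = 0.00630) and *Fabp7* (adjusted *P* = 0.0126), in a fit that also called many other genes. This test and the comparison of the WT tissues share libraries with the comparisons above.

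Between the tissues themselves, 4 of the 6 tested genes differed in WT mice, where the test, also unpaired, called 57.4% of 18543 genes. *Fabp7* had the largest fold of the 6, with 109 ± 18.2 CPM in WT cerebella against 24.5 ± 5.98 in WT cortices (SD, n = 3 each), a log2 fold change of 2.15 (SE 0.173, adjusted *P* = 1.86e-06) or 4.44-fold. *Slc27a1* was also higher in the cerebellum, at 96.0 ± 6.47 against 74.6 ± 0.537 CPM (log2 fold change 0.37, adjusted *P* = 0.000838). *Fabp5* and *Fabp3* were lower in the cerebellum, with log2 fold changes of -0.63 (SE 0.0898, adjusted *P* = 0.000155) and -0.31 (SE 0.0763, adjusted *P* = 0.00564). *Slc27a4*, at 86.7 ± 8.45 and 93.3 ± 2.20 CPM, and *Cd36*, at 0.722 ± 0.385 and 1.10 ± 0.406 CPM, did not pass (adjusted *P* = 0.280 and 0.30). All 4 calls held with each WT library left out in turn. Set beside these levels, *Fabp5* in the *Snx14*-KO cerebella (84.0 to 96.2 CPM) overlapped the range of the WT cortices (90.0 to 97.5 CPM), while the WT cerebella lay below it. Markers of astrocytes and Bergmann glia moved with *Fabp7* between the WT tissues: 11 of 12 were higher in the WT cerebellum, with a median log2 fold change of 1.08, where the median of all genes was 0.02. Between *Snx14*-KO and WT cerebella, 10 of the 12 markers were higher while *Fabp7* had a lower mean. The part of these cells in the *Fabp7* values was not tested.

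Levels of different genes were compared as FPKM, the CPM per kilobase of exon. On the exon lengths of the deposited tables, *Fabp3* (88.9 ± 4.75 FPKM) and *Fabp7* (86.8 ± 14.6) led in the WT cerebellum and did not differ beyond their spread (SD, n = 3). *Slc27a4* (19.7 ± 1.92), *Fabp5* (16.9 ± 2.23) and *Slc27a1* (16.4 ± 1.11) followed, where *Fabp5* overlapped both FATP genes and these did not overlap each other, and *Cd36* was at 0.201 ± 0.107. In the WT cortex, *Fabp3* stood alone at 110.4 ± 8.62 FPKM, followed by *Fabp5* (26.2 ± 1.06), *Slc27a4* (21.1 ± 0.50), *Fabp7* (19.6 ± 4.79) and *Slc27a1* (12.8 ± 0.0921), of which *Fabp7* overlapped *Slc27a4*. Part of this order depends on the length. The exons of *Fabp5* add up to 3567 bases because the annotation includes a transcript with a retained intron, while its principal mRNA has 987 bases. For *Fabp3* both lengths are 823 bases. Per kilobase of principal mRNA, *Fabp5* was at 61.2 ± 8.04 FPKM in the WT cerebellum and 94.7 ± 3.82 in the WT cortex, closer to *Fabp3*, and *Fabp7* led in the WT cerebellum with 135 ± 22.7. The order of the FATP genes turned on this length, with *Slc27a1* at 34.3 ± 2.32 and *Slc27a4* at 21.4 ± 2.08 FPKM in the WT cerebellum, and at 26.7 ± 0.192 and 23.0 ± 0.544 in the WT cortex.

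The summed FPKM of the 5 FABP genes did not separate the genotypes in the cerebellum, with 193 ± 18.8 in WT and 172 ± 13.9 in *Snx14*-KO mice (SD, n = 3 each), and of the shares in it, on exon lengths, only that of *Fabp5* did. *Fabp5* made up 8.83% ± 1.36 of the sum in WT and 15.1% ± 1.37 in *Snx14*-KO cerebella, with ranges of 7.41% to 10.1% and 14.2% to 16.6%. The share of *Fabp3* was 46.3% ± 2.73 and 42.9% ± 1.77, and that of *Fabp7* was 44.9% ± 3.22 and 42.0% ± 1.02, both with overlapping ranges. On principal mRNA lengths the share of *Fabp5* was 21.5% ± 2.94 and 33.4% ± 2.28. The share of *Fabp3* was then 31.3% ± 2.16 and 26.4% ± 1.64, and that of *Fabp7* was 47.1% ± 3.598 and 40.1% ± 1.16. On this scale the shares of *Fabp3* and *Fabp7* also lay apart by mean ± SD, lower in the *Snx14*-KO cerebella. Which shares separated the genotypes thus depended on the length used. In the cortex, on exon lengths, the share of *Fabp5* was 16.8% ± 0.670 in WT and 16.4% ± 0.632 in *Snx14*-KO mice, and *Fabp3* made up 70.6% ± 3.43 and 69.8% ± 4.85 there. On principal mRNA lengths the cortex shares were 40.2% ± 1.27 and 39.3% ± 0.571 for *Fabp5*, and 46.8% and 46.5% for *Fabp3*. The cortex sums themselves did not overlap, with 151 to 160.1 FPKM in WT and 162 to 180.3 in *Snx14*-KO mice.

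**Figure D3:**
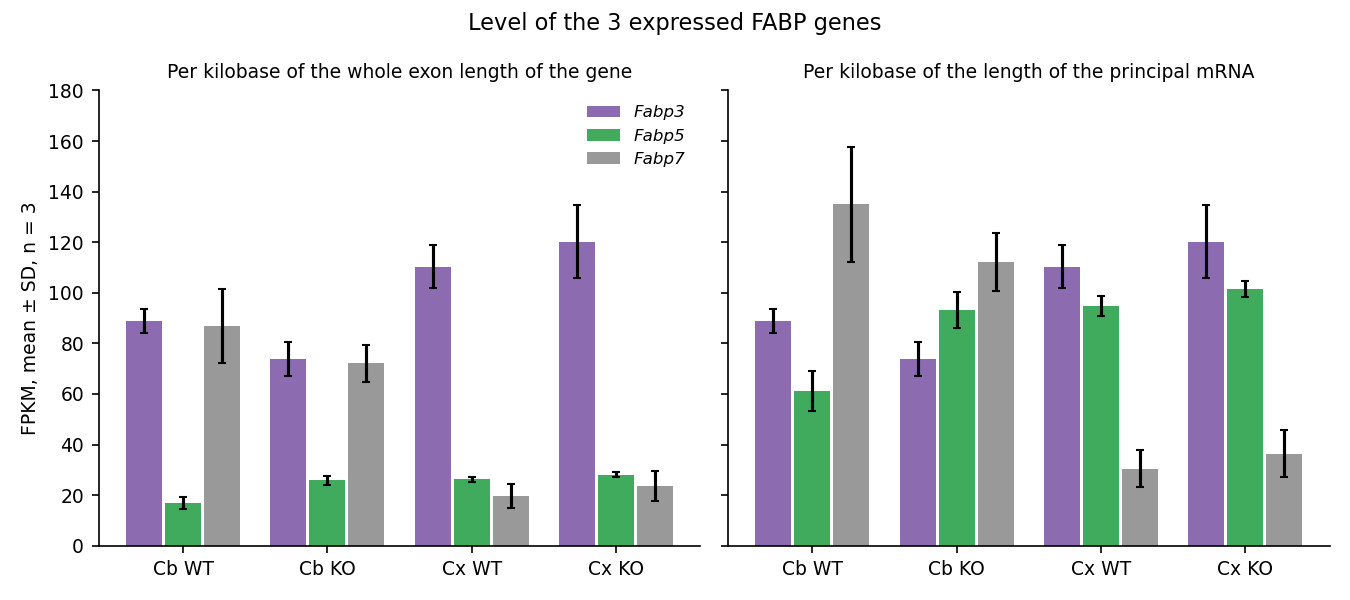
FPKM (y axis, mean ± SD, n = 3) of *Fabp3*, *Fabp5* and *Fabp7* in the 4 groups, per kilobase of the whole exon length of the gene (left) and of its principal mRNA (right). The *Fabp5* bars rise from left to right panel, from 16.9 to 61.2 in the WT cerebellum, while those of *Fabp3* are the same in both panels.

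Markers of several cell types were also compared between *Snx14*-KO and WT cerebella, and after adjustment the quasi-likelihood test called none of them. DESeq2 called 9 meningeal, 1 mural, 2 forebrain and 2 granule cell markers and none of the other markers described here. All 12 meningeal fibroblast markers were higher in the *Snx14*-KO cerebella, 10 of them with an unadjusted *P* under 0.05, where 5.78% of all genes were higher and 2.37% lower. They summed to 485 to 502 CPM against 178, 351 and 344 in WT cerebella 1, 2 and 3. All 14 microglia and macrophage markers were higher, 10 with an unadjusted *P* under 0.05, with sums of 289, 323 and 729 CPM against 238 to 305, which overlapped. Of 12 astrocyte and Bergmann glia markers, 10 were higher (median log2 fold change 0.25) and 6 had an unadjusted *P* under 0.05, with sums of 10249.7 to 11578 CPM against 9409 to 10004. All 12 granule cell markers were lower (median log2 fold change -0.31), 7 of them with an unadjusted *P* under 0.05. Of 12 markers of endothelial cells, which are known to carry *Cd36*, 10 were higher (median log2 fold change 0.16), with sums of 194 to 254 CPM against 187 to 219. Of 10 mural cell markers, 8 were higher (3 with an unadjusted *P* under 0.05), with sums of 241 to 251 CPM against 171 to 215 that did not overlap. Of 8 Purkinje cell markers, 7 were lower, 1 of them with an unadjusted *P* under 0.05. All 10 oligodendrocyte and all 10 choroid plexus markers were lower (median log2 fold changes -0.16 and -0.74), 0 of them with an unadjusted *P* under 0.05, and the choroid plexus sum ranged from 83.5 to 7523 CPM among the WT cerebella. The part of these cells in the values of *Fabp5*, *Fabp3*, *Fabp7* and *Cd36* was not tested.

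The libraries within each group were also set side by side. WT cerebellum 1 had the highest *Fabp5* of the WT cerebella, 69.5 CPM, and their lowest meningeal and microglia sums, 178 and 238 CPM. WT cerebellum 2 had the lowest *Fabp5*, 55.7 CPM, and their highest microglia and astroglia sums, 305 and 10004 CPM. *Snx14*-KO cerebellum 1 had the lowest *Fabp5* of the *Snx14*-KO cerebella, 84.0 CPM, and also their lowest microglia and astroglia sums and their highest meningeal sum, 502 CPM. *Snx14*-KO cerebella 2 and 3, with *Fabp5* at 96.2 and 95.8 CPM, had microglia sums of 323 and 729 CPM. The forebrain sum of *Snx14*-KO cerebellum 2, 217 CPM, lay within the WT range. With *Snx14*-KO cerebella 1 and 3 both left out, the log2 fold change of *Fabp5* was 0.68 (SE 0.138, unadjusted *P* = 0.00153, adjusted *P* = 0.836), a fit in which the lone *Snx14*-KO library is taken to vary like the WT libraries. That of *Fabp3* was -0.15 (unadjusted *P* = 0.235), against -0.26 with all libraries.

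**Figure D4:**
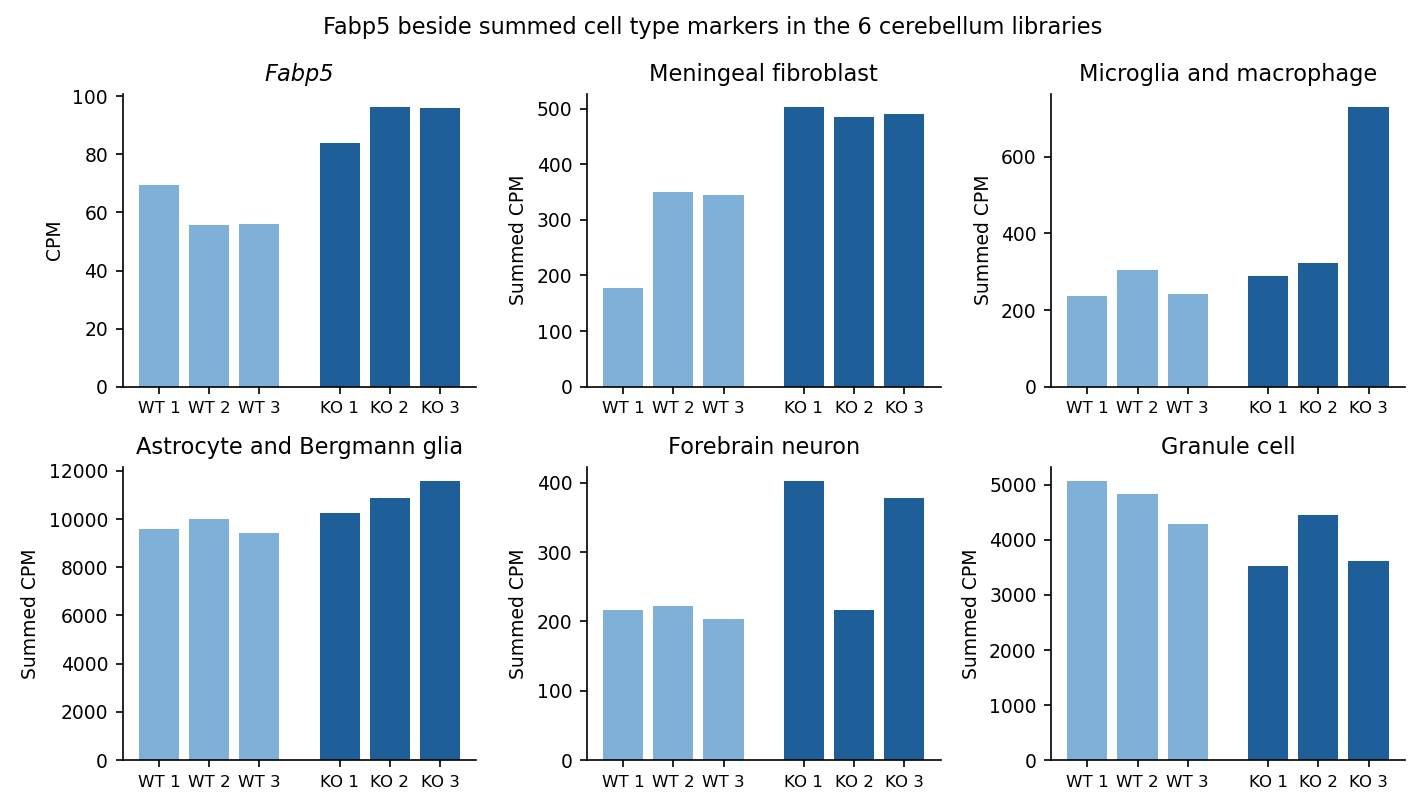
*Fabp5* (CPM) and the summed CPM of 5 marker lists (y axes, from 0) in the 3 WT and 3 *Snx14*-KO cerebella, a bar for each library. The meningeal and astroglial sums of the *Snx14*-KO libraries are all above those of the WT libraries, as is *Fabp5*, while the forebrain sum is higher in *Snx14*-KO libraries 1 and 3 (402 and 378), through *Nrgn*, *Camk2a* and *Bcl11b*, than in the other 4.

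Genes upstream and downstream of these carriers were examined as 7 lists. None of their genes passed adjustment in either tissue by the quasi-likelihood test. In the cerebellum, the genes with an unadjusted *P* under 0.05 were all higher in the *Snx14*-KO mice, a threshold that 8.15% of all genes passed, 5.78% on the higher side. They were 1 of 2 tested relatives of the FABPs, 1 of 6 acyl-CoA synthetases, 2 of 12 genes of vessel and lipoprotein supply, 2 of 8 PPARs and their partners and 1 of 15 PPAR targets. No gene was counted among the 2 tested other FATPs or the 5 tested acyl-CoA binding proteins. The medians ranged from -0.08 for the acyl-CoA binding proteins to 0.73 for the 2 FABP relatives, beside a median of -0.000616 for all genes.

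Among these, *Mfsd2a*, the transporter that carries docosahexaenoic acid across the blood-brain barrier, was at 12.7, 11.6 and 10.1 CPM in WT and 16.7, 15.3 and 17.9 in *Snx14*-KO cerebella (log2 fold change 0.55, SE 0.127, adjusted *P* = 0.232). *Acsbg1*, an acyl-CoA synthetase of brain and steroid-forming tissue, was at 429, 431 and 421 CPM and at 481, 473 and 483 (log2 fold change 0.18, SE 0.0604). In both genes every *Snx14*-KO library lay above every WT library, as for 6.21% of all genes tested. The same held for *Rxra*, *Rxrg* and *Crabp2*. *Rxra*, a nuclear receptor that pairs with PPARs, had a log2 fold change of 0.37 (SE 0.123), and *Rxrg*, which encodes another receptor of the same family, had 1.23 (SE 0.389) at a level of at most 1.79 CPM in the cerebellum. *Crabp2*, which carries retinoic acid, was at 0.965 to 3.00 CPM in WT and 4.17 to 4.68 in *Snx14*-KO cerebella. *Lpl*, the lipase that frees fatty acids from lipoproteins, rested on *Snx14*-KO cerebellum 3, with 27.1 CPM there and 3.10 and 2.97 in the other *Snx14*-KO cerebella, against 1.44, 4.09 and 0.965 in WT. *Plin4*, a lipid droplet coat protein, was likewise highest in that library, with 10.7 CPM against 1.67 to 4.61 in WT. This is also the cerebellum with the microglia sum of 729 CPM, and its part in both values was not tested.

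In the cortex, *Crabp2*, *Dbi*, *Ucp2* and *Plin4* were higher and *Rxrg* was lower at an unadjusted *P* under 0.05, beside 4.5% of all genes. Of the markers of other cells, all 12 meningeal markers were higher (7 at an unadjusted *P* under 0.05), as were all 12 endothelial markers (3). Higher were also 9 of 10 mural (1), 10 of 14 microglia (3) and 10 of 12 astrocyte markers (2). All 10 oligodendrocyte markers were lower (8), as were all 8 tested choroid plexus markers (2). WT cortex 1 had a choroid plexus sum of 145 CPM and the other cortices 11.9 to 22.1. Neither the quasi-likelihood test nor DESeq2 called any of these markers after adjustment. Their part in the cortex values was not tested. *Dbi*, the acyl-CoA binding protein, was at 82.2 to 85.2 CPM in WT and 88.6 to 104 in *Snx14*-KO cortices (log2 fold change 0.19, SE 0.0749), and *Rxrg* at 5.23 to 11.5 and 2.20 to 4.06 (log2 fold change -1.27, SE 0.321, adjusted *P* = 0.883). In both genes the groups did not overlap, as for 9.24% of all genes tested, and those of *Crabp2* and *Ucp2* did not either. *Ucp2*, a mitochondrial carrier and PPAR target, was at 13.2 to 14.6 CPM in WT and at 16.6, 28.9 and 17.8 in *Snx14*-KO cortices, highest in the library with the raised meningeal markers. *Crabp2* had a log2 fold change of 0.83 (SE 0.337) and *Plin4* of 1.09 (SE 0.404) at levels of at most 4.35 CPM. *Rxrg* differed in direction between the tissues, and the interaction was 2.49 (SE 0.547, adjusted *P* = 0.255 by the quasi-likelihood test and 0.0190 by DESeq2). Its cerebellar values were highest in *Snx14*-KO cerebella 1 and 3 (1.77 and 1.79 CPM), the libraries with raised forebrain sums. *Snx14*-KO cerebellum 2 was at 0.991 CPM and the WT cerebella at 0.429 to 0.807. The part of those 2 libraries in the interaction was not tested. The other interactions with an unadjusted *P* under 0.05 were -0.33 for *Dbi*, 2.48 for *Lpl* and 0.36 for *Rxra*, none of which passed adjustment.

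WT cerebellum and WT cortex differed in much of this set as well. *Dbi* was higher in the cerebellum by 2.40 on the log2 scale and *Acbd4* by 0.51, *Ucp2* by 2.14 and *Plin2* by 1.18, and *Ppard* by 0.53. Lower in the cerebellum were *Lpl* (log2 fold change -2.80), *Cav2* (-2.09), *Rxrg* (-3.49) and the acyl-CoA synthetase genes *Acsl5* (-2.75) and *Acsl4* (-1.20). All 10 passed adjustment. Of 6 tested acyl-CoA synthetases, 4 were called lower and 1 higher, and of 5 acyl-CoA binding proteins, 4 were called higher and 1 lower. Of 12 tested genes of vessel and lipoprotein supply, 3 were called higher and 4 lower, and of 8 PPARs and partners, 3 higher and 3 lower. Among all genes, 29.2% were called lower and 28.2% higher. Of the 15 tested PPAR targets, 7 were called higher and 0 lower, and no gene was called among the FABP relatives or the other FATPs.

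The genes whose pattern was most like each of the 6 were found by Pearson's r over the 12 libraries, after the mean of each tissue was subtracted from log2(CPM + 1), among 17055 other genes. The libraries share depth, mice and the genotype contrast, so these values are a description. *Fabp5* was followed most closely by *Stx1a* (r = 0.98), a syntaxin of the presynaptic membrane, *Rtel1* (0.96), a DNA helicase, and *Fscn1* (0.91), an actin-bundling protein. For *Fabp7* they were *Trio*, *Kmt2e* and *Etv3* (0.90 to 0.87), for *Fabp3* *Nat9*, *Cox7c* and *Gm45605* (0.91 to 0.88), and for *Cd36*, among 17056 genes, *Acsm5*, *Ptgr1* and *Ptpn14* (0.87 to 0.84). For *Slc27a1* they were *Narfl*, *Tomm40* and *Gm3764* (0.95 to 0.92), and for *Slc27a4* *Cops6*, *Atad3a* and *Ruvbl1* (0.94 to 0.92). No member was among the 3 genes nearest to another member.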

How the data were processed

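The deposited tables hold whole-number counts of read pairs per gene, 1 table per library, with the exon length of each gene. Per the study's methods and the file headers, reads were trimmed by the authors, aligned by STAR to GRCm38 and assigned to genes with featureCounts (Subread 2.0.1), without strand, leaving out read pairs that map to several places and counting a pair for every gene it overlaps. The deposited counts are not normalized. From them, CPM and FPKM were computed on library sizes scaled by TMM over the 12 libraries. Gene names came from GENCODE vM21, whose coordinates were the same for 55450 of 55536 genes. A further 26248 numbered features (0.0506% to 0.0632% of counts) and 97 spike-in features were left out.

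Each comparison was fitted with edgeR 4.0.16 (glmQLFit, filterByExpr, TMM; Benjamini-Hochberg adjustment over all genes tested; threshold 0.05), which was tested on simulated data. DESeq2 1.42.0, no filter, other size factors, each library left out, the mouse as a replicate block and a single fit over 12 libraries were alternatives. The 8 genes, the lists and the tests were chosen with earlier results of these data known. Named genes were *Snx14*, the 8 genes, list genes with an unadjusted *P* under 0.05 (for the WT tissues, the 2 called genes per list with the largest change), markers at 0 or defining a type, and the 3 genes most like each of the 6 tested. Both tissues carry the same mouse numbers in the labels and were taken as the same animals. The main fits held no term for this pairing, and the mouse as a block was an alternative only. Deviations from the group means correlated at 0.0731 to 0.159 (WT) and 0.0178 to 0.338 (*Snx14*-KO) between same-numbered tissues, and at -0.129 to -0.0187 and -0.265 to 0.155 between tissues with different numbers. The labels name separate mice within a group, and no 2 libraries were alike (chi-square per gene of at least 6.00). Intervals and floors cover counting error and the spread between these libraries only.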

Additional observations from a re-analysis of the deposited data

How the results depend on the processing

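Of the 6 tested genes, the 4 tissue differences in WT mice were called under every alternative, and no alternative called a gene of the 6 in the cortex. In the cerebellum the main count was 0 of 6, and it was 1 (*Fabp5*) without the filter, with DESeq2 and with a single fit over 12 libraries, and 0 to 1 with each library left out. For the tissue difference in the knockout effect the count was 0, and 2 (*Fabp5* and *Fabp7*) without the filter. Over all genes, the cerebellum comparison called 1 gene, against 389 without the filter, 216 with DESeq2, 50 in the fit over 12 libraries and 1 to 264 with a library left out, 264 without *Snx14*-KO cerebellum 2, 10 without WT cerebellum 2 and 2 without WT cerebellum 3. The cortex comparison called 1 gene, against 218, 15, 2 and 1 to 2 (2 without *Snx14*-KO cortex 1). The tissue difference called 0 genes, against 418 without the filter, 35 with DESeq2 and 0 to 257 (257 without *Snx14*-KO cerebellum 2, 1 without WT cerebellum 1). Testing without the filter adds genes with few counts; the cause of the other shifts was not tested.

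Directions turned only where the change was near 0 or rested on few counts, each time with 1 library left out: *Slc27a4* in the cerebellum (-0.077 to 0.056), in the cortex (-0.027 to 0.075) and for the tissue difference (-0.12 to 0.022), *Slc27a1* in the cortex (-0.23 to 0.028) and *Cd36* in the cortex (-0.71 to 0.022). The log2 fold change of *Fabp5* in the cerebellum stayed between 0.57 and 0.73.

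WT and *Snx14*-KO mice of a tissue share only a number (correlations of -0.0917 to 0.0810), and the replicate block left 1 gene called in either tissue; *Fabp5* in the cerebellum was then at 0.63 (adjusted *P* = 0.279). With the mouse as the replicate block between tissues, the *Fabp5* tissue difference was 0.51 (adjusted *P* = 0.470). The block changed no call of the 6 genes.

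The summed FABP level was 193, 172, 156 and 172 FPKM in WT and *Snx14*-KO cerebella and WT and *Snx14*-KO cortices. As TPM it was 639, 575, 493 and 545, and on principal mRNA lengths, an alternative chosen after seeing the data like the fit without *Snx14*-KO cerebella 1 and 3, it was 285, 279, 236 and 258. Both scales move all groups by construction. With a pseudocount of 0.5, the 3 genes most like each of the 6 were the same, except that *Cd36* shared 2 of 3. Depth limits *Cd36* (5 to 29 counts), *Fabp4* and *Pmp2*.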
